A study of Mus musculus with 9 samples.

Results

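The genes described here are Srebf1, which encodes the lipogenic transcription factor SREBP-1, the lipid droplet protein gene Pnpla3, and Fasn, Scd1, Scd2, Acaca, Acly, Elovl6, Thrsp and Me1, which act in or beside fatty acid synthesis. They were taken by symbol from a table of 17314 genes, and all 10 were found and passed the expression filter that left 13044 genes. They were chosen by their measured CPM over the 3 ages, so their differences between ages are given as a description, with no test. The tissue was gastrocnemius, a calf muscle made mostly of fast fibres, from mice aged 6, 15 and 21 months, with 3 animals and 3 libraries at each age. The labels call these ages youth, mid and old and name no strain, sex, diet, genotype or treatment. Libraries held 15354396 to 17317856 reads. CPM is the read count relative to library size, after scaling between libraries. Myh4, the myosin of the fastest fibres, was the most abundant fast fibre marker, at 33611 to 60203 CPM over the 9 mice. On the first principal component mouse 2 of 6 months, mouse 1 of 15 months and mouse 3 of 21 months lay apart from the others, and results are also given without these 3. Nothing in the labels says more about where each animal came from, so p-values measure the spread between these samples.

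SREBP-1 is made as a membrane protein of the endoplasmic reticulum, is escorted by Scap, held back by Insig proteins, cut in the Golgi, and then enters the nucleus, where it switches on genes of fatty acid synthesis. Srebf1 transcription itself responds to insulin and to the oxysterol receptors LXR, and its alternative first exons give the forms SREBP-1a and SREBP-1c. In the pathway Acly splits citrate into acetyl-CoA, Acaca carboxylates it to malonyl-CoA, Fasn builds palmitate, Elovl6 lengthens it and Scd1 and Scd2 place the first double bond. Me1 supplies NADPH, and Thrsp (Spot14) is a small protein of lipogenic tissues whose gene responds to thyroid hormone and carbohydrate. Pnpla3 is a known SREBP-1c target in liver. Fatty acid synthesis is at home in liver and fat, and skeletal muscle, which takes up and burns fatty acids, runs it at a lower rate.

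Upstream sequence is shown for the genes whose levels differed most between ages, Srebf1 and Pnpla3, and for Fasn, the pathway's central enzyme. RefSeq windows of the build GRCm38.p6 were found for 8 of the 10 genes, 11 windows in all, and the 250 bases before each annotated start were searched. Gene positions here and below are from RefSeq on GRCm38. Srebf1 lies on chromosome 11 (60199084 to 60224186) with 3 starts. Of these, the windows before 60220627 (chr11:60220628-60220877, minus strand) and before 60210471 (chr11:60210472-60210721, minus strand) are printed. Pnpla3 lies on chromosome 15 (84167776 to 84189521), with the window chr15:84167566-84167815 on the plus strand, and Fasn on chromosome 11 (120805958 to 120825166), with the window chr11:120824548-120824797 on the minus strand. Each is written 5′ to 3′ on the strand of its gene, and capitals mark matches on either strand to the CCAAT box, to the GC box GGGCGG, or to the LXR element of the mouse Srebf1 promoter.
Srebf1, middle start: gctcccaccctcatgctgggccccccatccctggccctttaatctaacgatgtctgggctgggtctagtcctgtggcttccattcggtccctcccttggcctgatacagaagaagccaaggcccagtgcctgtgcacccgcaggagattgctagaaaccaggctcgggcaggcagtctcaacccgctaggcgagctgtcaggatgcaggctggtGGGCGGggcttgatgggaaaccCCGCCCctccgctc
Srebf1, inner start: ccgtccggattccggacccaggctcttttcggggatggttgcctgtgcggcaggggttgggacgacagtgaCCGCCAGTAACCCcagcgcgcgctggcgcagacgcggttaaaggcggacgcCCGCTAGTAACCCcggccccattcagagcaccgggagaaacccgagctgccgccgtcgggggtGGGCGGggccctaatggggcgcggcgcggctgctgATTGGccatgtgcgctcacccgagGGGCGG
Pnpla3: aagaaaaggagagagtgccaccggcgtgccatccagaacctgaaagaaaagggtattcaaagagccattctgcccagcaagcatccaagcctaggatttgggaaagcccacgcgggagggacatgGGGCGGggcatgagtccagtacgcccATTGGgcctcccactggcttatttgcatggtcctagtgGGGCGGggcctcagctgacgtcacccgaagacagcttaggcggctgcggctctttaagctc
Fasn: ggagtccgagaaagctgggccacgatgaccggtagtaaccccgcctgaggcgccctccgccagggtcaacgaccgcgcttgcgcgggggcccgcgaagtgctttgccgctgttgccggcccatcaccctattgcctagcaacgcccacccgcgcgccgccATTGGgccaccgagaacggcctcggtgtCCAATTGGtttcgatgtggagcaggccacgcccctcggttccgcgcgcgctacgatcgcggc
In the Srebf1 window before the inner start, the LXR element known from mouse SREBP-1c matched on the opposite strand at 179 to 167 bases upstream (read here as CCGCCAGTAACCC) and at 128 to 116 bases upstream (CCGCTAGTAACCC). They differ from each other at a single place, where the search took any base. That was the 1 window with a match among 32851 promoter windows (0.00304%). The letters searched are those of this same promoter, so its match was set in advance. The share thus does not say how rare LXR elements are. The same window held 1 CCAAT and 2 GGGCGG matches, and the Pnpla3 window also held 1 CCAAT and 2 GGGCGG matches. In the Fasn window CCAAT matched at 3 places, a pair of which share 2 bases. That window also holds the unmarked stretch ccggtagtaaccc. It differs from the LXR element letters, read on the same strand, at a single place. The search therefore does not say that Fasn lacks such an element. Matches to CCAAT occurred in 33.8% and to GGGCGG in 32.7% of all windows of this length. The sterol element letters TCACNCCAC matched in 0 of the 11 windows, against 1.05% of all windows, and the E-box CACGTG in 0 of 11, against 6.02%. The counts are per gene, so they do not say which Srebf1 start was used.

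Srebf1 and Pnpla3 were lower in every older mouse than in every 6-month mouse. Srebf1 stood at 56.2, 75.6 and 95.5 CPM in the mice of 6 months, at 29.3, 33.5 and 44.5 CPM in those of 15 months and at 34.0, 37.7 and 29.8 CPM in those of 21 months, mice 1 to 3 in order. The 6 older mice overlapped one another, and the highest of them, mouse 3 of 15 months, lay below the lowest 6-month mouse. Its mean was 75.8 ± 19.6 CPM in the 6-month mice, 35.8 ± 7.83 CPM in the 15-month mice and 33.8 ± 3.97 CPM in the 21-month mice (SD over 3 mice). At 21 against 6 months the log2 fold change was -1.16 (SE 0.20), or 0.446 times the younger level. The 15-month mice gave -1.08 (SE 0.20), or 0.472 times. Between 21 and 15 months it was -0.08 (SE 0.20). Leaving out any 1 of the 9 libraries kept the value between -1.34 and -0.95 at 21 against 6 months and between -1.27 and -0.87 at 15 against 6 months. Srebf1 exons share 109 bases with those of Rai1 on the opposite strand, and the sources used here do not say whether counting used strand. In bulk muscle, fewer cells of a type and less RNA per cell cannot be told apart, for this and every gene below.

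Pnpla3 had the widest range of the 10 genes, 10.3 times between its lowest and highest mouse. The deposited counts were 416, 348 and 171 reads at 6 months, 103, 64 and 41 reads at 15 months and 47, 60 and 41 reads at 21 months. As levels these were 26.1, 21.8 and 10.5 CPM, then 6.38, 3.94 and 2.59 CPM, then 2.82, 3.58 and 2.53 CPM. All older mice were below all 6-month mice, while the 15- and 21-month mice overlapped. Its mean was 19.5 ± 8.08 CPM in the 6-month mice, 4.31 ± 1.92 CPM in the 15-month mice and 2.98 ± 0.540 CPM in the 21-month mice (SD over 3 mice). The log2 fold change was -2.70 (SE 0.38) at 21 against 6 months, 0.154 times the younger level and rank 9 by size among 13044 genes. It was -2.17 (SE 0.37) at 15 against 6 months, rank 22, and -0.53 (SE 0.40) at 21 against 15 months. Without any 1 library it ran from -2.997 to -2.43 at 21 against 6 months and from -2.57 to -1.90 at 15 against 6 months.

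**Figure D1:**
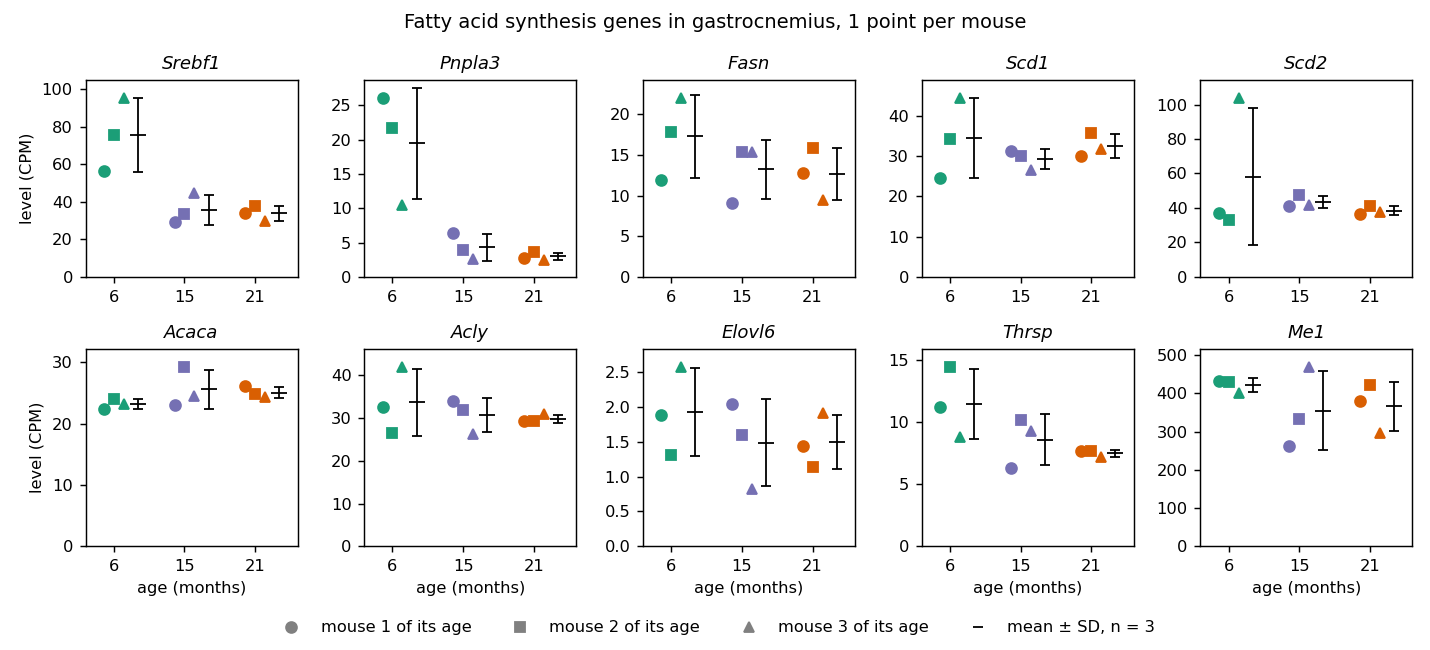
Level of each of the 10 genes in CPM (vertical axes, from 0) against age in months, 1 point per mouse, with symbols for mouse number and bars for mean ± SD of 3 mice. Srebf1 and Pnpla3 points at 15 and 21 months all lie below those at 6 months, while the other genes overlap between ages except Thrsp and Acaca at 21 against 6 months.

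Of the other 8 genes, most differed little between ages beside the spread of the 6-month mice. Acly, the citrate-cleaving enzyme, averaged 29.8 ± 0.977 CPM in the 21-month mice against 33.7 ± 7.79 CPM in the 6-month mice (SD over 3 mice), with a log2 difference of -0.18 (SE 0.16). Acaca, the malonyl-CoA-forming enzyme, was the least variable of the 10, with 1.31 times between its lowest and highest mouse. Its mice stood at 26.1, 24.8 and 24.3 CPM at 21 months, against 22.4, 24.0 and 23.2 CPM at 6 months. These groups did not overlap, yet the difference was 0.11 (SE 0.10) on the log2 scale. The isoform that regulates fatty acid oxidation, Acacb, is among the enzymes described further below.

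Fasn, the palmitate synthase, stood at 12.8, 15.9 and 9.45 CPM at 21 months and at 11.9, 17.9 and 22.1 CPM at 6 months. The groups overlapped, and the log2 fold change was -0.45 (SE 0.27), with -0.39 (SE 0.27) for the 15-month mice. Without mouse 3 of 6 months these were -0.22 and -0.16, and without the 3 mice that lay apart -0.25 and -0.15. Elovl6, the elongase of palmitate, was the least abundant of the 10 genes, with 1.44, 1.13 and 1.91 CPM in the 21-month mice against 1.89, 1.31 and 2.58 CPM in the 6-month mice. The groups overlapped, with a log2 difference of -0.36 (SE 0.37). Without mouse 3 of 6 months that was -0.09. Counts behind it were 13 to 42 reads per library.

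The desaturase genes Scd1 and Scd2 are neighbours on chromosome 19 (44394450 to 44407709 and 44293676 to 44306864), and because their sequences are similar, reads can be shared between them in estimated counts, so the split is uncertain. Scd1 stood at 30.0, 35.8 and 31.7 CPM at 21 months, against 24.6, 34.4 and 44.5 CPM at 6 months, a log2 fold change of -0.09 (SE 0.18). Scd2 stood at 36.7, 41.2 and 37.4 CPM at 21 months, against 37.3, 32.9 and 104 CPM at 6 months. Its log2 fold change of -0.60 (SE 0.36) rested on mouse 3 of 6 months. Without that mouse it was 0.14 at 21 against 6 months, and at 15 against 6 months it was 0.32 in place of -0.42. Leaving out the same mouse also turned the sign for Scd1 (0.15) and Acly (0.02) at 21 against 6 months.

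Thrsp stood at 7.63, 7.64 and 7.16 CPM at 21 months, against 11.2, 14.4 and 8.77 CPM at 6 months. These groups did not overlap, and the log2 fold change was -0.61 (SE 0.21). At 15 months it stood at 6.26, 10.2 and 9.29 CPM, which overlapped both other ages, and the log2 fold change against 6 months was -0.42 (SE 0.21). Me1, the cytosolic malic enzyme, stood at 380, 423 and 297 CPM at 21 months and at 434, 430 and 400 CPM at 6 months, with a log2 fold change of -0.20 (SE 0.20). The 15-month mice spread wider than either, from 263 to 469 CPM.

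Across the 10 genes, 9 were lower and 1 was higher at 21 against 6 months, with a median log2 fold change of -0.40, beside a median of -0.01 over all 13044 genes. At 15 against 6 months the counts were again 9 lower and 1 higher, with a median of -0.38, beside -0.01 over all genes. These comparisons share the 6-month mice. At 21 against 15 months, 7 were lower and 3 higher, with a median of -0.05, beside -0.003 over all genes. Groups did not overlap in 4 of the 10 at 21 against 6 months, in 2 at 15 against 6 months and in 0 at 21 against 15 months, beside 16.1%, 13.8% and 6.14% of all genes in either direction. In 3 genes the 21-month mice lay wholly below the 6-month mice (Srebf1, Pnpla3 and Thrsp), which 8.31% of all genes did, and in 1 gene (Acaca) wholly above, which 7.81% did. At 15 against 6 months 2 genes lay wholly below and 0 above, beside 7.14% and 6.64% of all genes. At 21 against 15 months 0 lay wholly below and 0 above, beside 3.3% and 2.84%. At the threshold of adjusted p 0.05, edgeR called 0 of the 10 in any comparison (all genes called: 0.0153% at 21 against 6 months, 0.00767% at 15 against 6 months and 0% at 21 against 15 months). DESeq2 called Srebf1 and Pnpla3 at 21 against 6 months, where it called 1.53% of all genes (0.797% as lower in the older mice), and at 15 against 6 months, where it called 0.874% (0.567% as lower). It called 0 of the 10 at 21 against 15 months, where it called 0.023% (0.00767% as lower). The same values chose the genes, so nothing is read from these counts.

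**Figure D2:**
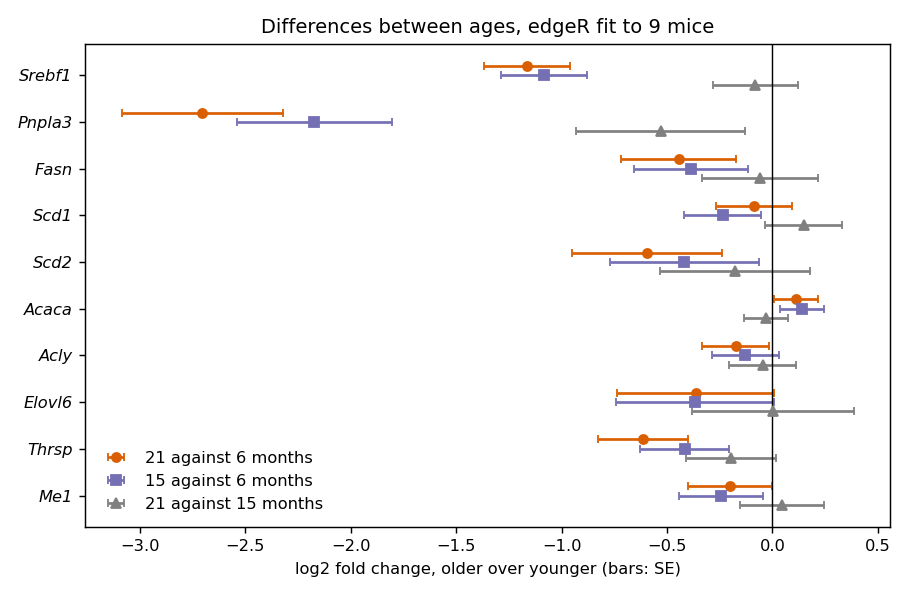
Log2 fold change of each gene (horizontal axis, bars are SE) at 21 against 6 months, 15 against 6 months and 21 against 15 months, from 1 fit to 9 mice. Pnpla3 lies at -2.70 and -2.17 and Srebf1 at -1.16 and -1.08 against 6 months, while the other 8 genes lie between -0.61 and 0.14 in these comparisons.

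Within an age Srebf1 and Pnpla3 did not always order the mice alike. At 6 months Srebf1 was highest in mouse 3 and lowest in mouse 1, and Pnpla3 was highest in mouse 1 and lowest in mouse 3. The 15-month mice showed the same opposite order, Srebf1 highest in mouse 3 (44.5 CPM) where Pnpla3 was lowest (2.59 CPM). At 21 months the orders matched, mouse 2 highest and mouse 3 lowest for both genes. With 3 mice per age these orders are a description.

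**Figure D3:**
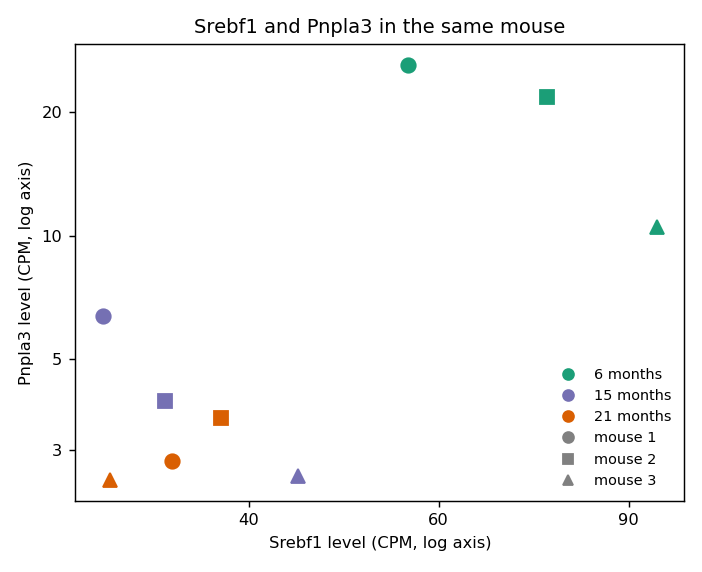
Pnpla3 level (vertical axis, CPM, log scale) against Srebf1 level (horizontal axis, CPM, log scale), 1 point per mouse, coloured by age and shaped by mouse number. The 6-month mice stand apart from the other 6, and within 6 and within 15 months the mouse with more Srebf1 has less Pnpla3.

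Mouse 3 of 6 months held the highest level among the 9 mice in 6 of the 10 genes: Srebf1, Fasn, Scd1, Scd2, Acly and Elovl6. It was the highest mouse in 14.7% of all genes tested. Mouse 2 of 6 months was highest for Thrsp and mouse 1 of 6 months for Pnpla3, while Acaca and Me1 were highest in mice of 15 months and 0 of the 10 were highest in a 21-month mouse. Among the further lists described below, mouse 3 of 6 months was highest in 6 of 20 other enzymes of fatty acid synthesis. These were Fads1, Fads2, Fads3, Tecr, Hacd1 and Acsl4. It was also highest in 5 of 23 SREBP processing and partner genes, 1 of 10 NADPH supply genes and 1 of 15 insulin and glucose genes. The count was 0 of 13 for triglyceride synthesis, 0 of 16 for lipid droplets and lipolysis and 0 of 8 for LXR targets. For the other PNPLA genes it was 0 of 4, and for the thyroid hormone receptors 0 of 2. This mouse was singled out after its values were seen, and the cause was not tested.

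**Figure D4:**
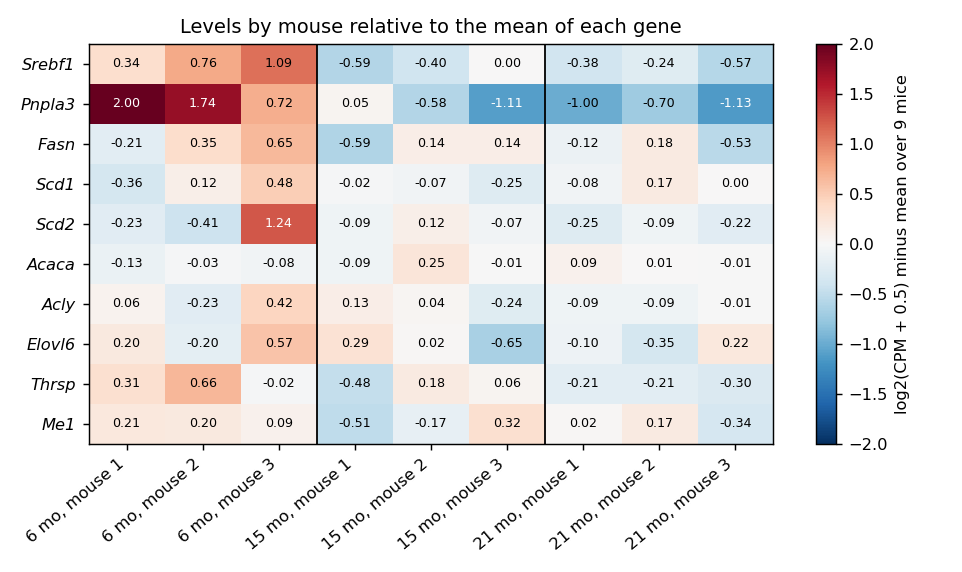
Log2(CPM + 0.5) of each gene in each mouse minus the gene's mean over the 9 mice, as colour and printed value, with ages separated by lines. Pnpla3 is above its mean by 0.72 or more in each 6-month mouse and stands at -1.13 in mouse 3 of 21 months, and Scd2 reaches 1.24 in mouse 3 of 6 months.

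Per kilobase of annotated exon, Me1 was by far the most abundant of the 10, at 99.0 CPM per kilobase over the 9 mice. Srebf1 (8.60), Scd2 (8.54), Scd1 (6.56), Acly (5.95), Pnpla3 (5.76) and Thrsp (4.19 CPM per kilobase) followed. Acaca (1.44), Fasn (1.32) and Elovl6 (0.255 CPM per kilobase) came last. At 6 months Pnpla3 stood close to Srebf1, at 12.6 against 13.5 CPM per kilobase, and at 21 months it stood at 1.92 against 6.00 CPM per kilobase. Neighbours in this order such as Srebf1 and Scd2, or Acly and Pnpla3, differ by less than their spread between mice. Lengths are the union of all exons in GENCODE M21, which may differ from the authors' annotation.

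The rest of the pathway was read from 10 further lists holding 142 genes, of which 131 were tested. At adjusted p 0.05 edgeR called 0 of the 131 in each of the 3 comparisons. At an unadjusted p under 0.05 there were 15 of them (11.5%) at 21 against 6 months, beside 10.6% of all genes, 18 (13.7%, beside 10.3%) at 15 against 6 months and 2 (1.53%, beside 1.82%) at 21 against 15 months. DESeq2 called 2 of the 131 (Apoe and Hk2) at 21 against 6 months, where it called 1.53% of all genes. At 15 against 6 months it called 1 of the 131 (Hk2), beside 0.874% of all genes. At 21 against 15 months it called 0, beside 0.023%.

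Other enzymes of fatty acid synthesis had a median log2 fold change of -0.04 at 21 against 6 months, with 8 of 20 tested genes higher and 12 lower. Acacb, the acetyl-CoA carboxylase of the mitochondrial surface, stood at 433 ± 21.5 CPM in the 21-month mice against 460 ± 96.3 CPM in the 6-month mice (SD over 3 mice), with a log2 difference of -0.09 (SE 0.14). Acsl1, which activates fatty acids, stood at 0.77 (SE 0.34), Hsd17b12, an enzyme of fatty acid elongation, at 0.49 (SE 0.15), Aacs, the acetoacetyl-CoA synthetase, at -0.57 (SE 0.21) and Hacd1, an elongation dehydratase of muscle, at -0.35 (SE 0.15). Among NADPH-supplying enzymes the median was -0.04, with 4 of 10 higher and 6 lower. Tkt, the transketolase, stood at -0.35 (SE 0.12), G6pdx, the first enzyme of the pentose phosphate pathway, at -0.25 (SE 0.12), Nnt, the mitochondrial transhydrogenase, at 0.67 (SE 0.30) and Mthfd1, a folate enzyme, at 0.10 (SE 0.10). Without the 3 mice that lay apart, Acsl1 stood at 0.33, Aacs at -0.36, Tkt at -0.18 and Nnt at 0.15, and without mouse 3 of 21 months alone Acsl1 stood at 0.40 and Nnt at 0.32.

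The genes that process SREBP proteins and their partner factors had a median of -0.01, with 8 of 23 higher and 15 lower at 21 against 6 months. The largest difference among the 4 named was that of Mlxip, a glucose-sensing partner of Mlx, at -0.56 (SE 0.18), with 133 ± 13.9 CPM in the 21-month mice against 196 ± 48.8 CPM in the 6-month mice (SD over 3 mice). Rxra and Rxrb, the retinoid X receptors that pair with LXR and with thyroid hormone receptors, stood at -0.21 (SE 0.14) and -0.20 (SE 0.13), and Prkaa2, a catalytic subunit of the energy-sensing kinase AMPK, at -0.13 (SE 0.12). Mlxip stood at -0.28 without the 3 mice that lay apart. Target genes of LXR outside fatty acid synthesis had a median of -0.24, with 3 of 8 higher and 5 lower. Apoe, an apolipoprotein of lipid export, stood at 68.6, 68.0 and 70.7 CPM at 21 months, against 91.0, 116 and 92.6 CPM at 6 months. The groups did not overlap, and the log2 fold change was -0.53 (SE 0.11). Its adjusted p was 0.101 in edgeR and 0.00307 in DESeq2, and between 0.0847 and 0.380 in 16 other edgeR fits. Mylip, a ubiquitin ligase, stood at -0.34 (SE 0.13), Abcg1, a sterol exporter, at -0.58 (SE 0.29), and Smpdl3a at -0.14 (SE 0.11). Mylip stood at -0.21 without the 3 mice that lay apart.

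Genes of triglyceride synthesis had a median of 0.10 at 21 against 6 months, with 10 of 13 tested genes higher and 3 lower. Dgat2, which makes the final step, stood at 16.0, 15.0 and 50.6 CPM at 21 months, against 18.9, 2.88 and 8.64 CPM at 6 months, a log2 fold change of 1.42 (SE 0.63) with overlapping groups. Gpat3 and Gpam, acyltransferases of the first step, stood at 0.42 (SE 0.18) and 0.41 (SE 0.20), Agpat3 at 0.40 (SE 0.19) and Lpin1, a phosphatidate phosphatase, at -0.10 (SE 0.19). Lipid droplet and lipolysis genes had a median of 0.11, with 9 of 16 tested higher and 7 lower. Cidea, a droplet fusion protein, stood at 2.30 (SE 0.83) on 1.26 ± 0.892 CPM in the 21-month mice against 0.248 ± 0.163 CPM in the 6-month mice (SD over 3 mice), Plin5, a droplet coat protein of oxidative tissue, at 0.88 (SE 0.57), Lpl, the lipoprotein lipase, at 0.54 (SE 0.49), Abhd5, the activator of Pnpla2, at 0.20 (SE 0.11) and Plin4 at -0.18 (SE 0.18). Without the 3 mice that lay apart, Dgat2 stood at 0.17, Gpam at 0.13, Cidea at 1.12, Plin5 at 0.32 and Lpl at -0.31.

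Other genes of the PNPLA family stood nearer 0 than Pnpla3. Pnpla2, the main triglyceride lipase, had a log2 fold change of -0.02 (SE 0.31) at 21 against 6 months on 212 ± 65.0 CPM in the 21-month mice against 215 ± 56.0 CPM in the 6-month mice (SD over 3 mice). Pnpla6, Pnpla7 and Pnpla8 stood at -0.19 (SE 0.12), -0.24 (SE 0.12) and -0.14 (SE 0.15), and the other 2 genes of the list, Pnpla1 and Pnpla5, did not pass the filter. Cholesterol synthesis genes, which answer mainly to SREBP-2, had a median of -0.001, with 10 of 21 higher and 11 lower. Hmgcs1, the synthase before the rate-limiting step, stood at -0.001 (SE 0.10), Fdft1, the squalene synthase, at -0.20 (SE 0.13), Ebp, a sterol isomerase, at 0.33 (SE 0.13), Stard4, a sterol carrier, at 0.34 (SE 0.19) and Hsd17b7, a sterol reductase, at 0.63 (SE 0.32). Without the 3 mice that lay apart, Ebp stood at 0.21 and Stard4 at 0.15.

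Genes of insulin signalling and glucose uptake had a median of 0.01, with 8 of 15 tested higher and 7 lower at 21 against 6 months. Hk2, the hexokinase of muscle, stood at 472 ± 58.3 CPM in the 21-month mice against 318 ± 39.2 CPM in the 6-month mice (SD over 3 mice), with a log2 difference of 0.57 (SE 0.15). Its adjusted p was 0.198 in edgeR and 0.0165 in DESeq2, and between 0.116 and 0.424 in 16 other edgeR fits. Gsk3b, an insulin-inhibited kinase, stood at -0.42 (SE 0.15), Pik3r1, the regulatory subunit of PI3-kinase, at -0.45 (SE 0.22) and Slc2a4, the insulin-responsive glucose transporter, at -0.15 (SE 0.16). Without the 3 mice that lay apart, Pik3r1 stood at -0.08 and Gsk3b at -0.20. Thra, which encodes a thyroid hormone receptor, and its paralog Thrb stood at -0.37 (SE 0.11) and -0.12 (SE 0.09).

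**Figure D5:**
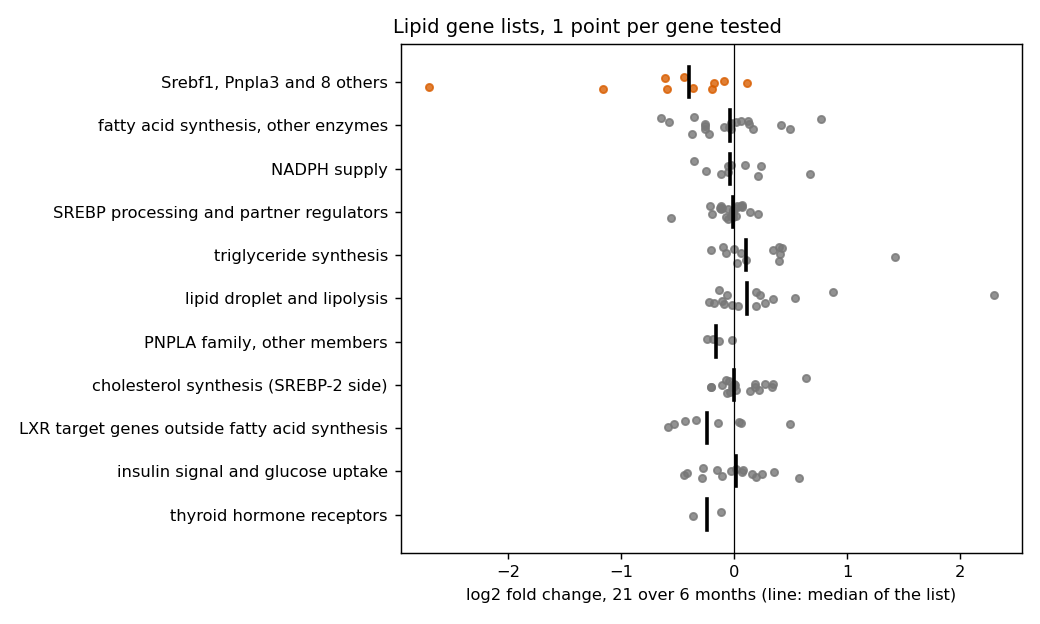
Log2 fold change at 21 against 6 months (horizontal axis) for every tested gene of each list, 1 point per gene, with the list median as a vertical line. Pnpla3 and Srebf1 lie at -2.70 and -1.16, and the lowest value among the other lists is -0.65.

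Fat cells between muscle fibres also express these genes, so adipocyte markers were read in every library. Of 11 markers 10 were in the table, and Ucp1, Adrb3 and Plin1 were at 0 in at least 1 library. Their summed level ran from 283 to 375 CPM at 21 months, from 248 to 410 CPM at 15 months and from 181 to 335 CPM at 6 months. Fabp4, which endothelial cells express too, made up 85.0 to 96.8% of it. The remaining 9 markers summed to 13.5 to 14.5 CPM at 21 months, 8.57 to 17.3 CPM at 15 months and 11.5 to 50.1 CPM at 6 months. Mouse 2 of 6 months stood apart, with 9.33 CPM of the fat hormone gene Adipoq against 0.817 and 1.16 CPM in its group, and it was the highest of the 9 mice for Thrsp and next to the highest for both Srebf1 and Pnpla3. Without that mouse the log2 fold change at 21 against 6 months was -1.17 for Srebf1, -2.62 for Pnpla3 and -0.42 for Thrsp.

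The relation between these genes and the adipocyte markers across mice is given as a description with no p-value, since the genes were chosen by these levels and the mice pooled differ in age. Pearson's r on the log2(CPM + 0.5) scale with the summed adipocyte level was -0.65 for Srebf1 and -0.21 for Pnpla3 over the 9 mice. With each age's mean removed it was -0.60 for Srebf1 and 0.68 for Pnpla3. Without mouse 3 of 6 months and mouse 1 of 15 months, whose marker levels lay farthest from the median, it was -0.14 for Srebf1 and -0.15 for Pnpla3. Without the 3 mice that lay apart on the first principal component it was -0.96 for Srebf1 and -0.56 for Pnpla3. Over the 9 mice it was -0.72 for Fasn, -0.70 for Scd2 and -0.64 for Me1, and between -0.42 and 0.01 for the other 5 genes. Fasn stood at -0.25 without the 2 mice of outlying marker level and at -0.66 without the 3, Scd2 at -0.45 and -0.86, and Me1 at -0.58 and -0.14. Summed without Fabp4, the markers gave 0.32 for Srebf1 and 0.48 for Pnpla3 over the 9 mice, and -0.77 and -0.22 without mouse 2 of 6 months and mouse 2 of 15 months. The size and the sign of r thus moved with the mice and the markers used, for Srebf1 as well as for Pnpla3.

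Fibre type markers also differed between mice and between ages. The summed level of 8 slow and oxidative fibre markers ran from 1214 to 4473 CPM at 21 months, from 1106 to 5306 CPM at 15 months and from 57.1 to 1774 CPM at 6 months. All 8 were higher at both older ages than at 6 months, with median log2 fold changes of 2.35 at 21 and 2.90 at 15 months. The older mice lay wholly above in 2 of the 8 at 21 months and 6 at 15 months, beside 7.81% and 6.64% of all genes. Neither edgeR nor DESeq2 called any of them. Myh2, the myosin of fast oxidative fibres, made up most of the sum in every mouse but mouse 2 of 6 months, where it was at 0.751 CPM. In mouse 1 of 15 months it was at 4395 CPM of the 5306 CPM. Mouse 1 of 15 months and mouse 3 of 21 months held the highest sums of these markers of their ages. Without these 3 mice, which are those that lay apart, the log2 fold change at 21 against 6 months was -1.08 for Srebf1 and -2.51 for Pnpla3. The same 3 mice moved the smaller differences: Elovl6 stood at -0.79 without them, Thrsp at -0.39 and Me1 at -0.05. Macrophage markers, 7 in all, summed to 137 to 187 CPM at 21 months, 101 to 189 CPM at 15 months and 187 to 330 CPM at 6 months. Endothelial markers summed to 515 to 630 CPM, 514 to 688 CPM and 471 to 688 CPM in the same order of ages, fibro-adipogenic progenitor markers to 1059 to 1176 CPM, 1077 to 1169 CPM and 1088 to 1680 CPM, and Schwann cell markers to 85.3 to 90.9 CPM, 95.3 to 163 CPM and 70.0 to 111 CPM. The part of fibre type and of these cell types in the differences of Srebf1 and Pnpla3 was not tested.

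The genes whose levels most resembled those of Srebf1 across the 9 mice were Stac3, a protein of excitation-contraction coupling (Pearson's r 0.957), Lats2, a Hippo pathway kinase (0.955), Pdlim7, a PDZ and LIM domain protein (0.953), Kcnj11, a subunit of the ATP-sensitive potassium channel (0.946), and Abi3bp, a matrix protein (0.944). All 5 had lower means at both older ages, with log2 fold changes from -0.57 (Pdlim7) to -0.22 (Lats2) at 21 against 6 months, which is less than the -1.16 of Srebf1. For Pnpla3 they were Plekhg1 (0.972), Rsrp1 (0.967), Trp53inp1, a p53-induced gene (0.957), Tnfrsf25, a death domain receptor (0.956), and Sh3pxd2b, an adaptor protein (0.956). Their log2 fold changes at 21 against 6 months ran from -1.82 (Tnfrsf25, on means of 0.382 CPM at 21 months and 1.37 CPM at 6 months) to -0.62 (Rsrp1). Plekhg1 stood at 8.10 CPM at 21 months and 15.3 CPM at 6 months. These were chosen as the highest among the 13044 genes tested, leaving out Gm, Rik, LOC, BC and AA names, so r is a description. None of the other 9 genes of fatty acid synthesis was among the 5 most like either gene.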

How the data were processed

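RNA of gastrocnemius from 9 mice was extracted with TRIzol, selected with oligo(dT) beads and sequenced from DNA nanoballs, per the labels' protocols. The authors deposited 1 table of estimated counts per gene, and the submitters' processing notes name the build mm10. No source used here gives the aligner, the counter or its use of strand. Of the values in a library 90.0 to 90.7% were whole within 0.005. Columns were matched to samples by life stage and number.

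Estimated counts were rounded. Genes were filtered with filterByExpr (minimum count 10), scaled by TMM (factors 0.923 to 1.05) and tested in edgeR 4.0.16 (R 4.3.3) by quasi-likelihood on all 9 libraries with age as a factor, with Benjamini-Hochberg adjustment over 13044 genes and a threshold of 0.05. SE is the fold change over the root of F. The procedure was tested on simulated counts. Alternatives were DESeq2 1.42.0, RLE or total count scaling, no filter, 5 CPM in 3 libraries, a replicate block, only the 2 ages compared, and libraries left out. P-values measure the spread between these mice. Members and lists were chosen with earlier results of these data known. Named genes were the 10 members and, per list, genes past the threshold, the 3 smallest p-values at 21 against 6 months and the 2 highest means, with further markers by level. Mouse 3 of 6 months was singled out after its values were seen, and the sum without Fabp4 was added then. Its count over the cholesterol list is not reported here.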

Additional observations from a re-analysis of the deposited data

How the results depend on the processing

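The number of genes edgeR called over the whole table was small and moved with the fit. At 21 against 6 months it was 2, with 200 in DESeq2, 30 with no filter, 5 with the replicate block, 1 with total count scaling and 0 to 42 when 1 library was left out, the highest without mouse 3 of 6 months. At 15 against 6 months it was 1, with 114 in DESeq2, 0 with at least 5 CPM in 3 libraries, with only those ages in the fit, with the replicate block and with total count scaling, and 0 to 10 when 1 library was left out. At 21 against 15 months it was 0 in edgeR (237 genes at an unadjusted p under 0.05) and 3 in DESeq2. The cause of these shifts was not tested. Correlations between same-numbered mice, as deviations from their age means, ran from -0.17 to 0.41, -0.10 to 0.19 and -0.42 to 0.02 for numbers 1, 2 and 3. With 3 mice per age these cannot say whether the numbers mark a pairing. With the replicate block the log2 fold change at 21 against 6 months was -1.12 for Srebf1 and -2.63 for Pnpla3.

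Of 507 alternative fold changes of the 10 genes, 487 kept their sign and 6 moved by more than the spread between mice. Those were Scd2 without mouse 3 of 6 months (0.14 and 0.32 at 21 and at 15 against 6 months), Elovl6 without the 3 mice that lie apart (-0.79 and -0.87), and at 15 against 6 months Acly (-0.35) and Thrsp (-0.04) without those 3. Total count scaling shifted the median of all genes by 0.07 at 21 against 6 months, and Srebf1 and Pnpla3 then stood at -1.09 and -2.61. Among 42 named genes of the other lists, 22 of 711 alternative values at 21 against 6 months changed sign, and the cause was not tested. When 1 library was left out, Acacb ran from -0.22 to 0.0713, Lpin1 from -0.27 to 0.13, Plin4 from -0.30 to 0.0415, Lpl from -0.0128 to 1.05, Pnpla2 from -0.30 to 0.17, Pnpla8 from -0.28 to 0.00750 and Hmgcs1 from -0.0796 to 0.0705. Without the 3 mice that lie apart, Acacb stood at 0.0744, Rxrb at 0.00966, Lpin1 at 0.22, Lpl at -0.31 and Pnpla8 at 0.0552. Total count scaling gave 0.00216 for Acacb, 0.0666 for Pnpla2 and 0.0795 for Hmgcs1. The replicate block gave 0.0162 for Pnpla2, and Hmgcs1 stood at 0.00270 in DESeq2 and 0.00286 with RLE scaling. Counts of 13 to 42 reads per library limit the precision for Elovl6.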
